A study of Mus musculus with 8 samples.

Results

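The genes described are 10 regulators of the epithelial-mesenchymal transition, taken by name from the 21705 gene rows of an RNA sequencing table of mouse kidney cortex. The 6 mesenchymal repressors are Snai1, Snai2, Twist1, Twist2, Zeb1 and Zeb2, and the 4 epithelial counterparts are Ovol1, Ovol2, Esrp1 and Esrp2. The wild-type group was Sav1+/+ and received vehicle (4 libraries), and the Sav1-null group was Sav1-/- and received tamoxifen (4 libraries), both on a mixed background. Sav1 encodes salvador, a scaffold of the Hippo kinase cascade. Genotype and treatment differed together in every library. The driver of the deletion, the deleted exons and the ages are likewise not given in the sources used here. The labels do not say that each library came from its own animal, and a p-value then reflects the spread among libraries, which may in part be technical.

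In the epithelial-mesenchymal transition, epithelial cells give up their cell-cell junctions and apical-basal polarity and take on features of migratory mesenchymal cells. The SNAIL zinc-finger proteins and the ZEB zinc-finger homeobox proteins bind E-box sequences in promoters of junction genes such as Cdh1 (E-cadherin) and repress them, and the TWIST proteins are basic helix-loop-helix factors that act in the same programme. OVOL zinc-finger repressors and the RNA-binding proteins ESRP1 and ESRP2 act on the epithelial side. OVOL proteins repress ZEB genes, and ESRP proteins direct the splicing of transcripts such as those of Fgfr2, Cd44 and Ctnnd1 into their epithelial forms. In kidney, expression of SNAIL, TWIST and ZEB genes has been studied in injured tubules and in the fibroblasts of the interstitium.

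Values are the deposited expression levels, scaled so that the upper quartile of the values above 0 lay at 999 or 1000 in each library. The wild-type libraries held about 20500000 to 25000000 reads and the Sav1-null libraries 15700000 to 20900000, and 3 reads of a gene were worth 2.34 to 3.09 units. Sav1 was 1350 ± 345 in the wild-type and 898 ± 127 in the Sav1-null libraries (SD, n = 4). It was 1.48-fold lower (log2 fold change -0.56, limma adjusted p = 0.0220), and the ranges of the groups overlapped. Sav1 was no longer called when wild-type replicate 1 or 2 was left out (log2 fold changes of -0.50 and -0.43, with limma adjusted p of 0.0613 and 0.0571) or at equal library totals (-0.18 and 0.376). Sex-linked transcripts differed as well: Ddx3y, Eif2s3y, Uty and Kdm5d were at 0 in all 4 Sav1-null libraries, and Xist was 12229 ± 2922 there and 0.247 ± 0.494 in the wild-type libraries. Genotype, treatment and sex therefore cannot be told apart. The column names of both groups end in the same set of numbers, and the labels do not say whether the groups were sequenced apart. A batch that followed the groups could not be told apart from them. Havcr1, a marker of injured proximal tubule, was 451 ± 529 in the wild-type and 10530 ± 4372 in the Sav1-null libraries, and wild-type replicates 2 and 3 stood at 1099 and 665 while replicates 1 and 4 stood at 23.6 and 15.5. In Sav1-null replicate 4, the sums of the proximal tubule, endothelial and fibroblast markers were the lowest of its group.

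Of the 10 regulators, 7 averaged at least 10 units over the 8 libraries and were tested with limma on log2(value + 1) over 13677 genes. Zeb1, Ovol2 and Esrp1 were higher in the Sav1-null libraries, Ovol1 and Esrp2 were lower, and Snai2 and Zeb2 were not called. Among all tested genes 69.1% were called at an adjusted p under 0.05, 43.9% as higher and 25.2% as lower, so the 5 calls among 7 tested regulators are a share near that of all genes. Within both epithelial pairs the paralogs moved in opposite directions: Ovol1 fell while Ovol2 rose, and Esrp2 fell while Esrp1 rose. The ranges of the groups did not overlap for 3 regulators that were higher (Snai1, Ovol2 and Esrp1) and for 2 that were lower (Ovol1 and Esrp2). Over all tested genes the groups stood apart in 65.2%, in 41% as higher and in 24.1% as lower. Over all genes above 0 in at least 1 library, a set that also holds the low Snai1, these shares were 35.8% and 19.8%.

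**Figure D1:**
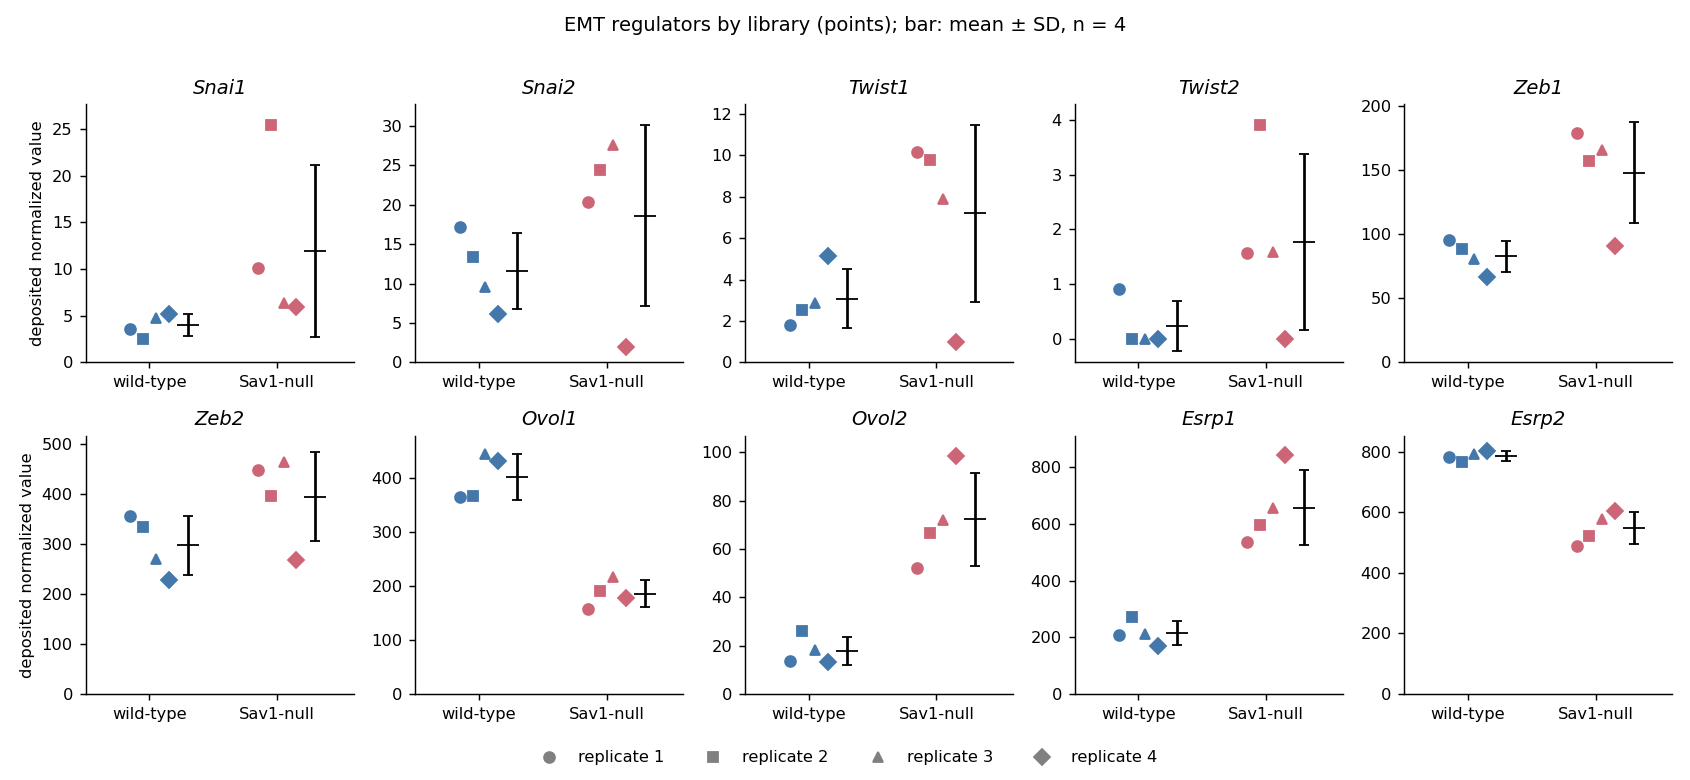
Deposited normalized value (vertical axis, own scale for each gene) of the 10 regulators in the 4 wild-type libraries (blue) and the 4 Sav1-null libraries (red), with the mean and SD of each group beside the points and the symbol giving the replicate number. Ovol1 and Esrp2 lie lower in all 4 Sav1-null libraries, Ovol2 and Esrp1 lie higher in all 4, and for Snai2, Twist1, Zeb1 and Zeb2 the diamond of Sav1-null replicate 4 lies apart from the other Sav1-null points.

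Among the SNAIL genes, Snai1 was low in every library. Its wild-type values were 3.63, 2.51, 4.78 and 5.15, and its Sav1-null values were 10.2, 25.4, 6.32 and 5.91. Each Sav1-null library was above each wild-type library, with Sav1-null replicate 2 the highest and replicates 3 and 4 close to the highest wild-type library. The means were 4.02 ± 1.20 and 11.9 ± 9.18 (SD, n = 4), and the mean difference on the log2(value + 1) scale was 1.17 (two-sided exact permutation p = 0.0286, the smallest that 70 assignments allow). The values stand for 17 reads in the wild-type and 53 reads in the Sav1-null libraries. On the upper-quartile scale of the deposited values the ratio was 2.93, with an exact 95% interval of 1.67 to 5.40 that covers counting error only. Snai1 stood below the level at which genes were tested, and with no such filter its adjusted p by limma was 0.0447, in a fit that called 38.8% of genes as higher. Sav1-null replicate 2 held 26 of the 53 reads, and without it the difference was 0.75 (exact permutation p = 0.0571, the smallest possible). The difference was 0.98 after median-of-ratios rescaling (exact permutation p = 0.0571) and 0.18 after quantile normalization (exact permutation p = 0.743).

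Snai2, which encodes SLUG, had wild-type values of 17.2, 13.4, 9.57 and 6.19 and Sav1-null values of 20.3, 24.4, 27.7 and 1.97. Sav1-null replicates 1 to 3 were above every wild-type library and replicate 4 was below every one of them. The log2 fold change of Sav1-null over wild-type was 0.30 ± 0.70 (SE) and was not called (limma adjusted p = 0.717). Without Sav1-null replicate 4 it was 1.07 with an adjusted p of 0.0233 by limma, in a fit that called 46.5% of all tested genes as higher. With quantile normalization the sign turned (-0.77, limma adjusted p = 0.311). In reads, Snai2 had 19, 16, 10 and 6 in the wild-type libraries and 26, 25, 35 and 2 in the Sav1-null libraries.

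The TWIST genes lay near the floor of detection. Twist1 had wild-type values of 1.81, 2.51, 2.87 and 5.15 and Sav1-null values of 10.2, 9.78, 7.90 and 0.984. As with Snai2, Sav1-null replicates 1 to 3 were above every wild-type library and replicate 4 was below them all. The mean difference was 0.79 on the log2(value + 1) scale (exact permutation p = 0.286), and it was -0.13 after quantile normalization (exact permutation p = 0.886). Twist1 had 13 reads in the wild-type and 34 in the Sav1-null libraries. Twist2 had 1 read in the wild-type group, in replicate 1, and 8 reads in the Sav1-null libraries, with none in Sav1-null replicate 4. The ratio of Twist2 reads, on the upper-quartile scale of the deposited values, was 7.52. Its exact 95% interval from 1.01 to 334 covers counting error only, not the spread among libraries. The exact permutation p was 0.143. The 2 groups overlapped at 0.

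Zeb1 was the called repressor. Its wild-type values were 95.2, 88.8, 80.4 and 67.0, and its Sav1-null values were 179, 157, 166 and 90.6. Sav1-null replicates 1 to 3 lay above the highest wild-type library and Sav1-null replicate 4 lay within the wild-type range. The means were 82.9 ± 12.2 and 148 ± 39.4 (SD, n = 4), a log2 fold change of 0.80 ± 0.23 (SE) or 1.74-fold (limma adjusted p = 0.0113). The call was lost with quantile normalization (0.04, limma adjusted p = 0.868), which called 31.5% of tested genes as higher, and with wild-type replicates 1 and 4 alone as the wild-type group (0.84, limma adjusted p = 0.0554).

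Zeb2 had wild-type values of 356, 335, 270 and 229 and Sav1-null values of 448, 396, 465 and 268. The pattern over libraries was that of Zeb1, with Sav1-null replicate 4 inside the wild-type range and the other 3 above it. The means were 297 ± 58.7 and 394 ± 89.2 (SD, n = 4), and the log2 fold change was 0.40 ± 0.20 (SE, limma adjusted p = 0.109). Zeb2 was called without Sav1-null replicate 4 (0.57, limma adjusted p = 0.00850) and when all libraries were scaled to equal totals (0.78, limma adjusted p = 0.00437). That last scaling called 63.4% of tested genes as higher and moved the median log2 fold change over the tested genes from 0.23 by 0.38, while median-of-ratios rescaling moved it by -0.22 and quantile normalization by -0.25. Median-of-ratios rescaling called 33.8% of tested genes as higher and 34% as lower. Among the calls, the higher ones made up 63.5% as deposited, 81.7% with equal totals, 49.9% with median-of-ratios rescaling and 48.8% with quantile normalization.

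Ovol1 was lower in the Sav1-null libraries. Its wild-type values were 365, 368, 446 and 433, and its Sav1-null values were 157, 191, 217 and 178. Every Sav1-null library was below the lowest wild-type library. The means were 403 ± 42.7 and 186 ± 25.2 (SD, n = 4), 2.17-fold lower, with a log2 fold change of -1.12 ± 0.13 (SE, limma adjusted p = 5.29e-05). With quantile normalization, which called 33% of tested genes as lower, the log2 fold change was -1.57.

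Ovol2, its paralog, was higher. The wild-type values of Ovol2 were 13.6, 26.0, 18.2 and 13.4, and the Sav1-null values were 52.3, 66.5, 71.9 and 98.4. The lowest Sav1-null library was above the highest wild-type library, and Sav1-null replicate 4 was the highest of all. The means were 17.8 ± 5.88 and 72.3 ± 19.3 (SD, n = 4), 3.93-fold higher, with a log2 fold change of 1.98 ± 0.28 (SE, limma adjusted p = 0.000189). With quantile normalization it was 0.89 (limma adjusted p = 0.0208). These values rest on 78 reads in the wild-type and 326 in the Sav1-null libraries.

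Esrp1 was higher in the Sav1-null libraries. Its wild-type values were 207, 272, 211 and 170, and its Sav1-null values were 538, 596, 656 and 843. The groups did not overlap. The means were 215 ± 42.3 and 658 ± 132 (SD, n = 4), 3.05-fold higher, with a log2 fold change of 1.61 ± 0.17 (SE, limma adjusted p = 3.66e-05). As for Ovol2, Sav1-null replicate 1 was the lowest of its group and replicate 4 the highest.

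Esrp2 was lower, by less than Ovol1. The wild-type values of Esrp2 were 781, 764, 792 and 803, the narrowest relative spread among the regulators in that group, and the Sav1-null values were 487, 522, 577 and 603. The groups did not overlap. The means were 785 ± 16.7 and 547 ± 52.5 (SD, n = 4), 1.44-fold lower, with a log2 fold change of -0.52 ± 0.085 (SE, limma adjusted p = 0.000455). With equal library totals this call was lost (-0.14, limma adjusted p = 0.187), a scaling that called 14.2% of tested genes as lower and lifted the median log2 fold change by 0.38.

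**Figure D2:**
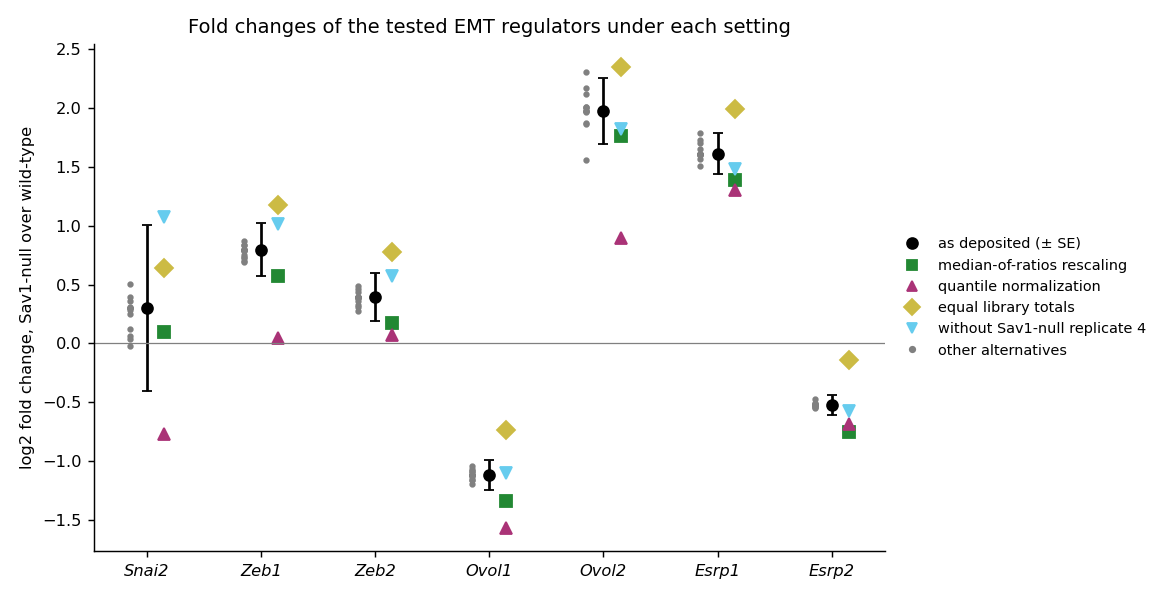
Log2 fold change of Sav1-null over wild-type (vertical axis) for the 7 tested regulators. Black points with SE bars are the values as deposited, coloured symbols the 3 other scalings and the fit without Sav1-null replicate 4, and grey points the remaining alternatives. Ovol1 lies below 0 and Ovol2 and Esrp1 lie above 0 under every setting drawn, while Zeb1 is near 0 with quantile normalization (0.04) and Snai2 lies on either side of 0.

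A ratio of paralogs within a library does not depend on a common factor for that library, apart from the added 1. As deposited all 3 pairs with both members tested differed between the groups. Among single tested genes the groups stood apart in 65.2%, and the share among ratios of other gene pairs was not tested. The Ovol2 to Ovol1 ratio was 0.0449 ± 0.0176 in the wild-type and 0.391 ± 0.108 in the Sav1-null libraries (SD, n = 4). On the log2(value + 1) scale it was -4.65, -3.77, -4.54 and -4.91 in the wild-type libraries and -1.57, -1.51, -1.58 and -0.85 in the Sav1-null libraries, a difference of 3.09 ± 0.30 (SE). The groups were far apart, with Sav1-null replicate 4 the highest. The Esrp2 to Esrp1 ratio was 3.76 ± 0.78 in the wild-type and 0.844 ± 0.086 in the Sav1-null libraries, a log2 difference of -2.13 ± 0.17 (SE). Esrp2 was thus the higher of the pair in all 4 wild-type libraries and Esrp1 the higher in all 4 Sav1-null libraries. The Zeb2 to Zeb1 ratio was 3.57 ± 0.215 and 2.70 ± 0.221, a log2 difference of -0.40 ± 0.073 (SE), and its groups did not overlap although those of either gene did. Each of the 3 differences had a two-sided exact permutation p of 0.0286, the smallest possible with 4 against 4 libraries, and 0.0286 after Benjamini-Hochberg adjustment over the 3 pairs. Quantile normalization, which reshapes the values within a library, ended the Zeb2 to Zeb1 difference (0.024, exact permutation p = 0.686), while the log2 difference was 2.46 for Ovol2 to Ovol1 and -1.99 for Esrp2 to Esrp1. The SNAIL and TWIST pairs were not tested because a member lay below the filter.

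**Figure D3:**
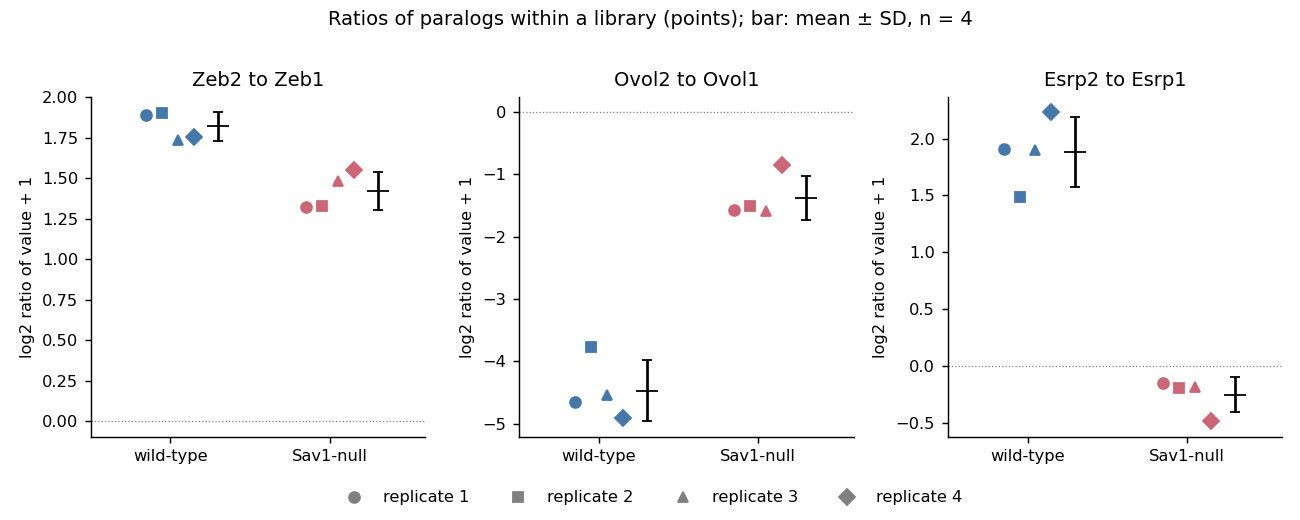
Log2 ratio of value + 1 within a library (vertical axis, own scale for each pair) for Zeb2 to Zeb1, Ovol2 to Ovol1 and Esrp2 to Esrp1 in the wild-type (blue) and Sav1-null (red) libraries, with mean and SD beside the points. The 4 Sav1-null libraries lie below the wild-type libraries for Zeb2 to Zeb1 and Esrp2 to Esrp1 and above them for Ovol2 to Ovol1 (as deposited), and the Esrp2 to Esrp1 ratio crosses 0, from 1.88 to -0.25 on average.

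Dividing each value by the length of the longest coding transcript gave levels that can be set beside each other. In the wild-type libraries Esrp2 was the most abundant regulator at 222 ± 4.74 units per kb, ahead of Ovol1 (136 ± 14.4), Esrp1 (55.7 ± 10.95), Zeb2 (32.6 ± 6.43), Zeb1 (14.3 ± 2.10) and Ovol2 (11.5 ± 3.80). Snai2 at 5.74, Snai1 at 2.48, Twist1 at 1.90 and Twist2 at 0.0898 units per kb followed. The ranges over the 4 libraries overlapped for the neighbours Zeb1 and Ovol2, Snai2 and Snai1, and Snai1 and Twist1, so these are not ordered beyond their spread.

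In the Sav1-null libraries the per-length order began with Esrp1 at 170 ± 34.2 and Esrp2 at 155 ± 14.8 units per kb, which overlapped. Ovol1 at 62.5, Ovol2 at 46.7, Zeb2 at 43.2 and Zeb1 at 25.5 units per kb followed, each overlapping with the next. Every tested repressor thus stayed below both ESRP genes and Ovol1 in mean level. Ovol2 went from 5.61% to 11.9% of the summed OVOL level per kb in the wild-type libraries to 38.9% to 51.5% in the Sav1-null libraries. The sum itself was 131 to 162 and 86.6 to 124 units per kb, so as deposited the pair as a whole was lower in every Sav1-null library. This order depends on the scaling between libraries, and the sum was not tested under the other scalings. For the ESRP pair the sum was 271 to 287 units per kb in the wild-type and 277 to 389 in the Sav1-null libraries, while the share of Esrp2 went from 75.4% to 83.8% down to 43.9% to 49.7%. The summed ZEB level was 36.6 to 55.5 and 45.0 to 80.0 units per kb, which overlapped.

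The cortex is a mixture of cell types, and in such bulk samples fewer cells of a type and less RNA per cell cannot be told apart. The deposited values showed large differences in marker sums. The counts of called markers stand beside 43.9% higher and 25.2% lower over all tested genes. The 14 proximal tubule markers summed to 669927 to 737854 in the wild-type and 87215 to 265001 in the Sav1-null libraries, with 13 of 14 called lower. The 15 tested of 16 macrophage markers were all called higher, with sums of 1467 to 2658 and 10693 to 14333. Of 16 lymphocyte and natural killer markers 10 were tested and 9 were called higher (97.2 to 138 and 378 to 486). Some of these passed the filter only through their Sav1-null values. With no filter 10 of the 16 were called higher and 1 lower, in a fit that called 38.8% of genes as higher. Of the 8 principal cell markers, which belong to the collecting duct, 7 were called higher (10689 to 13756 and 24305 to 42909). Of the 8 intercalated cell markers 6 were called higher and 1 lower (8912 to 9944 and 12308 to 19257). The 16 endothelial markers included 2 called lower (5504 to 6992 and 2899 to 6157; 5 after median-of-ratios rescaling, 8 with quantile normalization, and 1 lower and 1 higher at equal totals), and the 8 podocyte markers 4 called lower and 1 higher. Of the 9 urothelial markers 2 were tested. Krt14 was at 0 in all 8 libraries and Upk2 and Upk3b were at 0 in all wild-type libraries. Upk1b and Upk3a went the other way, from means of 0.705 and 0.466 in the wild-type libraries to 0 in all Sav1-null libraries. Krt20 rose from 41.6 ± 47.2 to 2572 ± 808 (SD, n = 4). With no filter 3 of 8 urothelial markers were called higher, and the part of urothelial cells was not tested.

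Of the 14 fibroblast and pericyte markers 10 were tested and 6 were called higher, beside 43.9% of all tested genes. Among them were Pdgfra (4.01-fold), Dpt (3.25-fold), Fbln1 (3.28-fold) and Cspg4 (1.67-fold). With no filter 8 of 14 were called higher, beside 38.8% of genes. The count was 4 higher after median-of-ratios rescaling, 2 higher and 1 lower with quantile normalization, and between 4 and 7 higher with 1 library left out. The sum of the list was 963 to 1357 in the wild-type libraries, 2594, 2605 and 2944 in Sav1-null replicates 1 to 3 and 1243 in Sav1-null replicate 4. The library at the wild-type level of this sum is thus the library in which Zeb1 and Zeb2 lay in the wild-type range and Snai2 and Twist1 below it. Zeb1 per 1000 units of the summed fibroblast and pericyte markers was 60.8 to 72.5 in the wild-type and 56.4 to 72.8 in the Sav1-null libraries. These ranges overlapped, with means of 67.1 ± 5.09 and 64.6 ± 7.57 (SD, n = 4). Zeb2 on the same basis had means of 240 ± 27.7 and 175 ± 28.6 (SD, n = 4). Sav1-null replicates 1 to 3 (173, 152 and 158) lay below every wild-type library (204 to 271), and Sav1-null replicate 4 (215) lay among them.

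Against the endothelial and macrophage sums the groups stood apart for both ZEB genes. Zeb1 per 1000 units of endothelial markers was 11.5 to 16.1 in the wild-type and 28.3 to 31.2 in the Sav1-null libraries, and per 1000 units of macrophage markers 33.4 to 53.1 and 6.49 to 16.0. Zeb2 gave 38.6 to 60.8 and 72.8 to 92.4 against the endothelial sum, and 118 to 199 and 19.2 to 43.5 against the macrophage sum. The part of cell composition in the values of the ZEB genes was not tested.

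For the epithelial regulators, the collecting duct markers moved with the genes that rose. Ovol2 per 1000 units of principal cell markers was 1.09 to 2.43 in the wild-type and 1.80 to 2.65 in the Sav1-null libraries, and Esrp1 was 13.8 to 25.5 and 16.2 to 24.1, so both overlapped. Per 1000 units of intercalated cell markers the groups stood apart, with Ovol2 at 1.44 to 2.78 and 4.09 to 5.13 and Esrp1 at 18.2 to 29.2 and 36.7 to 46.8. The genes that fell did so by less than the sum of the proximal tubule markers. Ovol1 per 1000 units of those markers was 0.542 to 0.606 in the wild-type and 0.799 to 2.04 in the Sav1-null libraries, and Esrp2 was 1.08 to 1.16 and 2.18 to 6.92. What share of each regulator came from which cell type was not tested.

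**Figure D4:**
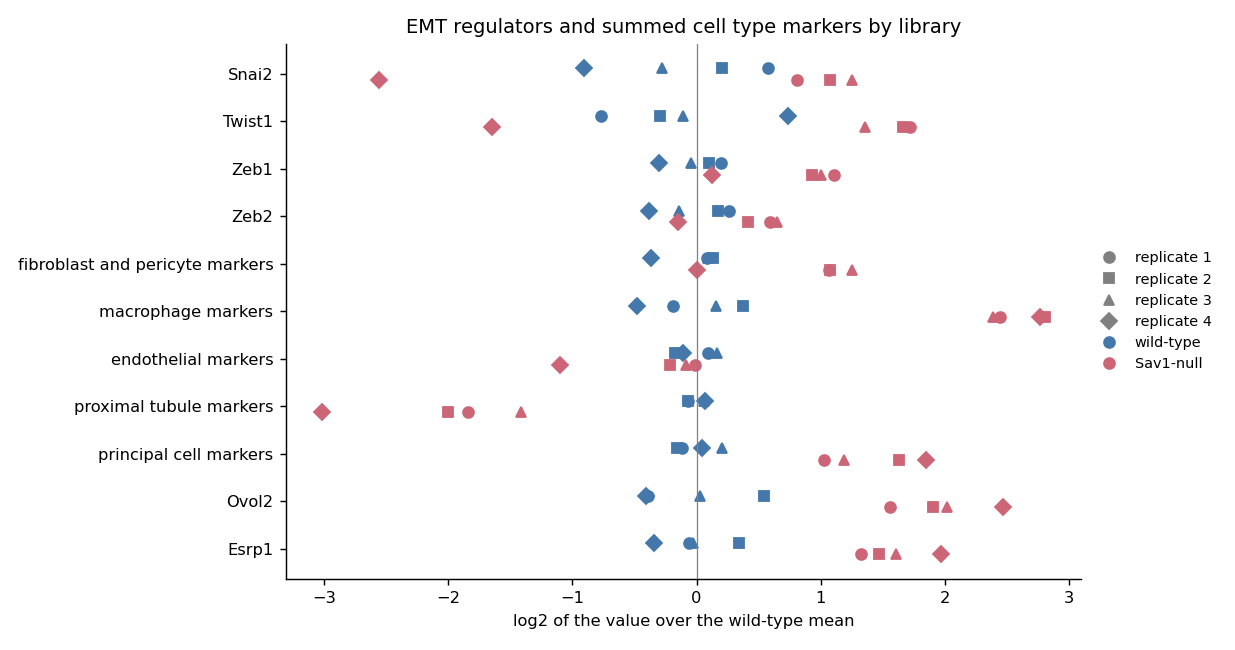
Log2 of the value over the wild-type mean (horizontal axis) in each library for Snai2, Twist1, Zeb1, Zeb2, Ovol2 and Esrp1 and for 5 summed marker lists, with colour for the group and symbol for the replicate. The diamond of Sav1-null replicate 4 lies left of the other Sav1-null points for the 4 repressors. It also lies left of them for the fibroblast and pericyte, the endothelial and the proximal tubule markers. For principal cell markers, Ovol2 and Esrp1 it lies right of the other Sav1-null points.

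The other transcription factors linked to the transition were sorted into mesenchymal and epithelial lists. Of 13 further mesenchymal factors 7 were below the filter, with Gsc at 0 in all libraries, and 5 of the 6 tested rose. Their median log2 fold change was 2.09, beside 0.23 over all tested genes, of which 43.9% were called higher. With quantile normalization 3 of these factors rose and 1 fell, with a median of 1.02. With no filter 7 of 12 rose and none fell, with a median of 1.36, in a fit that called 38.8% of genes as higher. Sox9, a factor of kidney progenitor and repairing tubule cells, rose 9.19-fold from 38.9 ± 22.5 to 332 ± 113 (SD, n = 4), Sox4 rose 7.05-fold, Klf8 4.89-fold and Foxc1 2.02-fold. Of 12 further epithelial factors 9 were tested, of which 8 rose and 1 fell, with a median log2 fold change of 2.45. With no filter 9 of 11 rose and 1 fell. Grhl2, a grainyhead factor that sustains junction genes and acts in one network with Ovol2, rose 4.06-fold from 146 ± 18.2 to 607 ± 167 (SD, n = 4). The ETS factors Ehf and Elf5 rose 5.46-fold and 14.9-fold and Klf5 rose 15.5-fold. Of the factors named here, Klf8, Elf5 and Klf5 had wild-type means of 8.70, 6.49 and 3.68. They passed the filter only through their Sav1-null values. Factors of both sides were therefore called higher in the same libraries.

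The proteins that SNAIL, ZEB and TWIST factors work with were mostly measured at moderate levels. Of 13 co-repressor and adaptor genes 8 rose and 2 fell, with a median log2 fold change of 0.41, beside 43.9% higher, 25.2% lower and a median of 0.23 over all tested genes. Ctbp2, a co-repressor that ZEB proteins recruit, rose 2.79-fold from 359 ± 46.6 to 1000.15 ± 47.9 (SD, n = 4), and Kdm1a, the histone demethylase that SNAIL recruits, rose 2.001-fold. The LIM proteins Jub (2.65-fold) and Wtip (2.45-fold) rose, and Lmo4 (1.603-fold) and Rcor1 (1.499-fold) fell. With median-of-ratios rescaling 6 of these genes rose and 3 fell. Of 7 genes for helix-loop-helix partners of TWIST and for Id proteins, which sequester such partners, 4 rose (Tcf3 2.03-fold, Tcf4 1.59-fold, Tcf12 1.51-fold and Id3 1.76-fold) and Id2 fell 1.25-fold (limma adjusted p = 0.0431). These counts stand beside the same 43.9% and 25.2%, and the call of Id2 was lost in 11 of 18 alternatives, with the sign turned at equal totals (0.06, limma adjusted p = 0.684). Of 11 genes that control the stability of SNAIL and related proteins, 5 rose and 2 fell: the deubiquitinase gene Usp27x rose 2.74-fold, Gsk3b 1.36-fold, Fbxo45 1.37-fold and Fbxo11 1.33-fold, and Btrc fell 1.26-fold and Usp47 1.15-fold. These shares are near those of all tested genes, and 1 rose and 4 fell after median-of-ratios rescaling. With 1 library left out, 1 or 2 genes of this list fell.

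Most junction genes, which the repressors are known to act on, were higher. Of 25 epithelial adhesion and polarity genes 22 rose and 1 fell, with a median log2 fold change of 1.37. Over all tested genes 43.9% were called higher and 25.2% lower. Cdh1 had wild-type values of 4121, 4369, 4081 and 4135 and Sav1-null values of 8788, 10750, 9728 and 15456, with no overlap and the highest value in Sav1-null replicate 4 (log2 fold change 1.39, limma adjusted p = 4.92e-05). Epcam rose 5.15-fold, the desmosomal gene Dsp 6.44-fold, and the tight-junction genes Cldn4 and Cldn7 rose 13.98-fold and 7.84-fold, while the channel-activating protease gene Prss8 fell 1.93-fold. With median-of-ratios rescaling 18 rose and 2 fell. Beside these counts stand the principal cell markers, of which 7 of 8 were higher, and the part of collecting duct cells in the adhesion list was not tested.

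The letters that SNAIL and ZEB proteins recognise can be shown in promoters of these genes. CAGGTG, or CACCTG when the other strand is read, was searched in the 250 bases before each start in the RefSeq promoter table of build GRCm38.p6, which is not the build of the deposited values (mm9). It occurred in 17.2% of 32851 promoters. Of the adhesion genes, 17 of 25 matched the table with 23 promoters, some of which overlap, and 12 of these (52.2%) held the letters, in 11 genes. Of the named adhesion genes, Cdh1 and Prss8 did not match the table and were not searched, and Dsp matched and held none. The stretches from Epcam (chr17:87635780-87635977, plus strand), Cldn7 (chr11:69965312-69965381, plus strand) and Cldn4 (chr5:134946935-134946960, minus strand) are printed 5′ to 3′ along the gene, since these named adhesion genes rose and held the letters. The stretch of Snai1 (chr2:167538057-167538086, plus strand) is printed because SNAIL is known to act on its own gene and it was the repressor whose promoter held the letters, 126 bases before the start. Capitals mark the E-box letters.
Epcam: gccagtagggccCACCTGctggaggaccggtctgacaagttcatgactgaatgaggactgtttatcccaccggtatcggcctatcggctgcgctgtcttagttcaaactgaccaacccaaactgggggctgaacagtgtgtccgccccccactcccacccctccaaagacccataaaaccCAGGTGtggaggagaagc
Cldn7: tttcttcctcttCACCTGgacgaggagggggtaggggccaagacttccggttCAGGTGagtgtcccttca
Cldn4: ctttaactgcagCACCTGtggccgcc
Snai1: gcagcccaggcgCACCTGctccggtctcag
Epcam held the letters 187 and 19 bases before the start, Cldn7 97 and 57 bases and Cldn4 14 bases before it. The other Cldn7 promoter in the search held none. Of the regulators, Snai1, Twist1, Twist2, Zeb2 and Ovol2 matched the table for this search, and 1 of 7 repressor promoters and 0 of 1 for Ovol2 held the letters. A match describes the letters and does not show binding.

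Mesenchymal genes were higher as well. Of 24 listed 21 were tested and 20 rose, with a median log2 fold change of 2.39, and none fell, beside 43.9% higher over all tested genes. In the same libraries 6 of 10 tested fibroblast and pericyte markers and 15 of 15 tested macrophage markers were higher, and the part of those cells in this list was not tested. Vim, an intermediate filament of mesenchymal and injured tubule cells, had wild-type values of 451, 410, 602 and 401 and Sav1-null values of 1727, 1636, 1510 and 806, with Sav1-null replicate 4 the lowest of its group. The receptor gene Axl rose 5.37-fold, the protease gene Mmp14 14.3-fold, and the matrix genes Sparc and Tnc 4.05-fold and 11.4-fold. Acta2, the smooth muscle actin of myofibroblasts and vessels, was not called (log2 fold change 0.07, limma adjusted p = 0.742). Of 25 genes for signals that induce or oppose the repressors 22 were tested, of which 18 rose and 3 fell, with a median log2 fold change of 1.03. Tgfb2 rose 14.1-fold from 20.8 ± 3.66 to 310 ± 76.2 (SD, n = 4), Nfkb1 2.997-fold, Stat3 2.76-fold and Hif1a 2.36-fold. Bmp7, an antagonist of transforming growth factor beta signalling in tubules, fell 2.03-fold and Met fell 1.46-fold.

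For the splicing programme, 13 of 15 listed splicing factor genes were tested, and 7 rose and 1 fell, with a median log2 fold change of 0.45, beside 43.9% higher and 25.2% lower over all tested genes. Rod1, which encodes a polypyrimidine tract binding protein, rose 4.23-fold from 1267 ± 146 to 5336 ± 279 (SD, n = 4), Rbfox2 2.47-fold, Ptbp2 2.13-fold and Khdrbs1 1.73-fold, and Khdrbs3 fell 2.40-fold. After median-of-ratios rescaling 5 of these genes rose and 3 fell. Of 12 genes whose transcripts ESRP proteins are known to splice, 7 rose and none fell, with a median log2 fold change of 0.58. After median-of-ratios rescaling 6 rose and 2 fell, with quantile normalization 7 rose and 1 fell, and at equal totals 11 rose and none fell. Cd44 rose 24.7-fold, Fgfr2 2.84-fold, Itga6 2.64-fold and Ctnnd1 1.53-fold. The values are totals per gene, so the epithelial and mesenchymal splice forms of these transcripts were not measured.

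**Figure D5:**
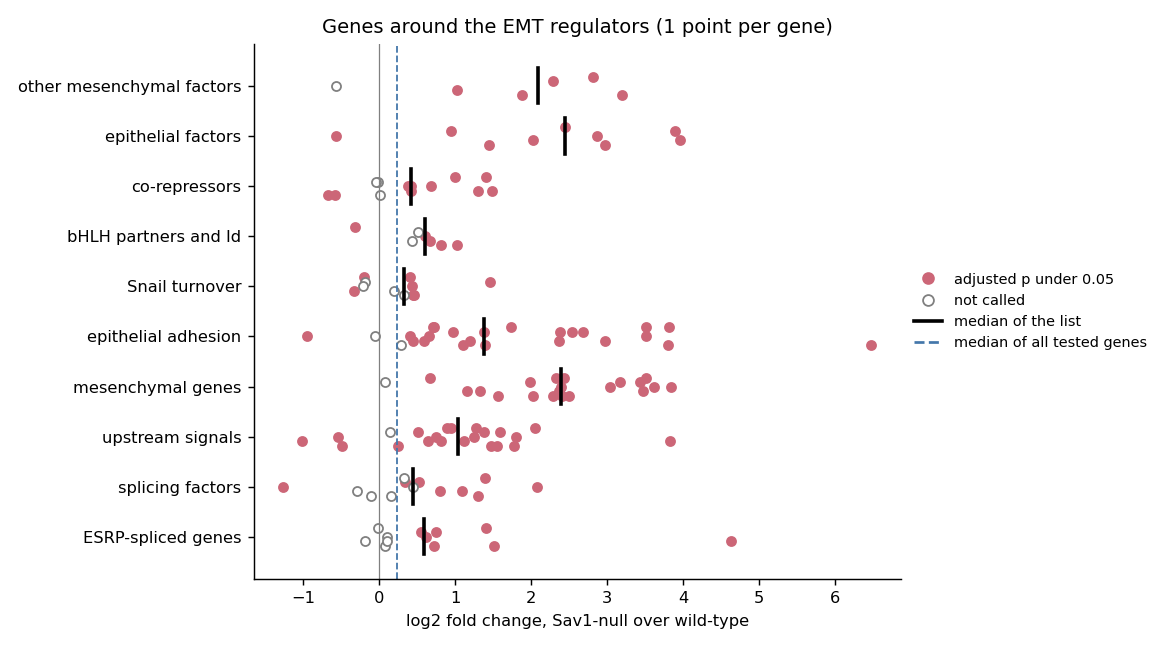
Log2 fold change of Sav1-null over wild-type (horizontal axis) of each tested gene in the 10 gene lists around the regulators, with filled points for genes at an adjusted p under 0.05, a black bar at each list's median and a dashed line at the median of all tested genes (0.23). The medians of the mesenchymal genes (2.39), the epithelial factors (2.45) and the epithelial adhesion genes (1.37) all lie to the right of that line.

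For each called regulator the genes with the most similar profile were found as those with the smallest root-mean-square difference of log2(value + 1) over the 8 libraries, after each gene was centred on its wild-type mean. For Zeb1 they were Styx at 0.067, Akap2 at 0.082 and Zfp518a at 0.089, and for Esrp1 they were Ifitm3 at 0.085, Epb4.1l4b at 0.089 and Fam189a2 at 0.099. For Esrp2 they were Vamp8 at 0.036, Ndufa5 at 0.059 and Rhot2 at 0.060. For Ovol1 they were Ech1 at 0.098, Iqsec2 at 0.10 and Ngef at 0.12, and for Ovol2 they were Prdm11, Rasgrf2 and Eepd1, at 0.14 to 0.15. These genes share libraries and scaling with the regulators, and the differences are given as a description.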

How the data were processed

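Poly(A) libraries from kidney cortex, made with a stranded mRNA kit per the labels, were compared as deposited. The deposited values are a signal per gene and library (RSEM with Picard 1.64, SAMtools and build mm9, per the submitters' processing notes), kept separate for each replicate. With the aligner, the annotation and the strand setting not given in the sources used here, values of near-identical paralogs and of antisense partners are uncertain. The scaling was read from the values: low values fell on steps taken as 1 read, and 92.7% to 93.3% of values below 400 lay within 0.02 read of a whole multiple, too few for a count model. Replicates differed by more than sampling noise in every pair (chi-square over its degrees of freedom from 12.9 to 114), and each was counted once.

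Groups came from the titles and genotype labels. Genes with a mean of at least 10 were tested (8028 of 21705 were not) with limma 3.58.1 in R 4.3.3 on log2(value + 1), which understates changes of low genes, with a variance trend on intensity, residual degrees of freedom of 6 and Benjamini-Hochberg adjustment over all tested genes. The script was tested on simulated data. Paralog ratios and genes below the filter had two-sided exact permutation tests over 70 assignments (scipy 1.17.1). Per-length levels used the longest coding transcript of the reference annotation.

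The regulators, the gene lists and the tests were chosen with earlier results of these data known, so no list's direction is independent evidence. Named were the 10 regulators, the checks (Sav1, sex-linked genes, Havcr1), per list up to 4 called genes with the smallest p in its main direction and up to 2 against it, markers at 0, and the 3 most similar profiles. A gene among those so chosen is not reported here. Cdh1, Vim, Acta2 and the marker ratios were chosen after their values were seen. Alternatives were pseudocounts of 0.5 and 10, no filter, a minimum mean of 50, 3 other scalings, a replicate block, no trend, and libraries left out.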

Additional observations from a re-analysis of the deposited data

Results flagged for a closer look

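In 26 sets of 4 libraries, each a regulator or a paralog ratio in a group, the gap of the most extreme library to its nearest neighbour was compared with the range of the set. It passed Dixon's 95% critical value for 4 samples in 3 sets, and chance alone passes it in about 1 set of 20. For Twist2 in the wild-type libraries the gap was 1.0 of the range, since replicate 1 had 1 read and the others none. For the log2 ratio of Ovol2 to Ovol1 in the Sav1-null libraries the gap was 0.896 of the range, with replicate 4 the highest. For the log2 ratio of Esrp2 to Esrp1 in the Sav1-null libraries it was 0.855, with replicate 4 the lowest.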

How the results depend on the processing

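Ovol1 and Esrp1 kept their direction and call in all 18 alternatives. Ovol2 kept them in the 17 in which it was tested, since it fell below a minimum mean of 50. The log2 fold changes ranged from -1.57 to -0.73 for Ovol1, from 1.30 to 1.99 for Esrp1 and from 0.89 to 2.35 for Ovol2. The count of regulators called higher (3) ranged from 3 to 5 with 1 library left out (5 without Sav1-null replicate 4) and was 2 with quantile normalization, with a minimum mean of 50 and with wild-type replicates 1 and 4 alone. The count called lower (2) was 1 with equal library totals. Over the 10 gene lists, 11 genes were called lower as deposited, 19 after median-of-ratios rescaling and 4 at equal library totals. Snai2 turned to -0.77 with quantile normalization and ranged from -0.020 (without Sav1-null replicate 3) to 1.07 (without Sav1-null replicate 4) with 1 library left out, and Twist1 turned to -0.13 with quantile normalization; the cause was not tested. The Zeb2 to Zeb1 difference turned to 0.024 with quantile normalization, an alternative for the ratios chosen after seeing the data, as were the other scalings. With 1 library left out, exact permutation of the paralog ratios cannot give less than 0.0571, and their log2 differences ranged from -0.45 to -0.37 for Zeb2 to Zeb1, from 2.92 to 3.32 for Ovol2 to Ovol1 and from -2.27 to -2.02 for Esrp2 to Esrp1. With wild-type replicates 1 and 4 alone they were -0.40, 3.40 and -2.32 (exact permutation p = 0.133, the smallest possible).

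Same-numbered libraries did not deviate together (correlations of 0.144, 0.0762, -0.169 and 0.135, with 2 of 4 highest with their own number), so the numbers were not taken as pairs. With the replicate block the paralog differences were -0.40, 3.09 and -2.13 (exact permutation p = 0.125, the smallest possible), 4 regulators were called higher and 2 lower, and Zeb2 was the added call (0.40, limma adjusted p = 0.0300). Depth limits Twist1, Twist2 and Snai1, with 13, 1 and 17 reads over the wild-type libraries.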
